A study of Mus musculus with 27 samples.

Results

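A1bg, the gene for alpha-1-B glycoprotein, was followed through the lobular zones of the mouse liver before and during pregnancy. It is 1 of 21823 genes in the expression table and passed the filter on low values with 12951 others. It was chosen because earlier results of these same data had shown it higher in pregnancy, so its levels are given below as a description, without a test. The genes that track it were chosen by the correlation of their values with those of A1bg, and they are described in the same way.

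The livers came from wild-type females labelled C57BL/6 (substrain C57BL/6N by the study's methods), either not pregnant (NP) or on gestation day 8 or 16 after mating (dpc8 and dpc16, for days post coitum). The labels name no transgene and no treatment. By the study's methods, it used virgin females of 8 to 14 weeks and dams with 6 to 12 pups. Areas of 2 mm2 were cut by laser from zones 1, 2 and 3 of frozen sections, which gave 9 groups of 3 libraries each. Zone 1 is periportal, zone 3 is pericentral, and zone 2 is the parenchyma in the middle of the lobule. The study describes independent experiments in different mice, and the labels do not tie single libraries to single mice. Cut areas hold whatever lay in them, including vessel walls and blood cells beside hepatocytes.

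Alpha-1-B glycoprotein is a secreted plasma protein built of immunoglobulin-like domains and made by hepatocytes. In humans it binds the cysteine-rich secretory protein CRISP3, and its own function is poorly understood. In rodent liver the gene is known as female-biased. Many such genes follow the pattern of pituitary growth hormone, which is pulsed in males and steadier in females and acts through its receptor GHR and the transcription factor STAT5B. Prolactin and the placental lactogens of pregnancy act on the related prolactin receptor.

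In the mm10 genome A1bg (ENSMUSG00000022347.8) lies on the minus strand at chr15:60896859-60923012. GENCODE lists 3 transcripts for it. A1bg-201, a protein-coding transcript of 7 exons and 1821 bases, spans 60917587 to 60921266. A1bg-202 is also protein-coding, with 6 exons and 669 bases, and begins farther upstream at 60923012. A1bg-203 is a processed transcript of 2 exons. The table gives 1 value for the gene, so the transcripts cannot be told apart.

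The promoter is shown because the regulators tied to sex-biased liver expression bind short motifs of this kind. The sequence is from RefSeq (GRCm38.p6, the minus strand of chr15:60921337-60921520), reads 5′ to 3′, and runs from 250 to 67 bases before the RefSeq start. Of these bases, 12 lie in an exon of A1bg-202. Capitals mark motif matches.

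A1bg promoter: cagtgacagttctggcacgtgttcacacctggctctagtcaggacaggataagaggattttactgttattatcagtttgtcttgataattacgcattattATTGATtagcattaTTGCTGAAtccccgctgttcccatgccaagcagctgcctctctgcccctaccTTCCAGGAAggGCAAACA

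From left to right, the capitals are a match to the ONECUT1 (HNF6) motif ATTGAT, to the C/EBP motif TTGCNNAA, to the STAT5 motif TTCNNNGAA, and to the FOXA motif TGTTTGC on the other strand. Both strands were searched over the 250 bases before the start, with TGTTTAC as a second form for FOXA, and none of the marked matches overlap. Of 10148 RefSeq promoters of the same length, 4.10% hold the ONECUT1 motif, 7.68% the C/EBP motif, 6.13% the STAT5 motif and 5.53% a FOXA motif. The HNF4A motif CAAAGTCCA, held by 0.443% of promoters, was not in this window. These matches describe letters and not binding, which was not measured here.

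In NP livers A1bg was moderately expressed in zones 1 and 2 and low in zone 3. FPKM, the unit here, is a fragment count scaled to transcript length and to the mapped fragments of the library. The NP zone 1 libraries had 141, 590 and 116 FPKM in replicates 1 to 3, NP zone 2 had 230, 387 and 319, and NP zone 3 had 38.7, 30.4 and 16.1. All 3 zone 3 libraries lay under every library of the other zones, while zones 1 and 2 overlapped because replicate 2 of zone 1 was far above the other two. The means were 282 ± 267, 312 ± 78.9 and 28.4 ± 11.4 FPKM for zones 1, 2 and 3 (SD, n = 3 each).

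At dpc8 the level was higher in every zone. Replicates 1 to 3 had 2373, 1800 and 3043 FPKM in zone 1, 4411, 1151 and 2696 in zone 2, and 1831, 691 and 628 in zone 3. Every one of these libraries exceeded every NP library of any zone. The group means were 2405 ± 622, 2753 ± 1631 and 1050 ± 677 FPKM. Among all genes by FPKM, A1bg held ranks 10 to 47 in 7 of the dpc8 libraries and ranks 117 and 130 in replicates 2 and 3 of zone 3. In NP its ranks ran from 117, in replicate 2 of zone 1, to 4100, in replicate 3 of zone 3. Its largest share of the FPKM sum was 0.738%, in replicate 1 of dpc8 zone 2.

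At dpc16 the level was still raised. Zone 1 had 1763, 1813 and 1685 FPKM, the group with the smallest SD on the log2 scale, zone 2 had 1483, 1389 and 451, and zone 3 had 875, 871 and 560. All zone 1 libraries lay above all libraries of zones 2 and 3, which overlapped through replicate 3 of zone 2. The means were 1754 ± 64.7, 1108 ± 571 and 769 ± 181 FPKM.

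**Figure D1:**
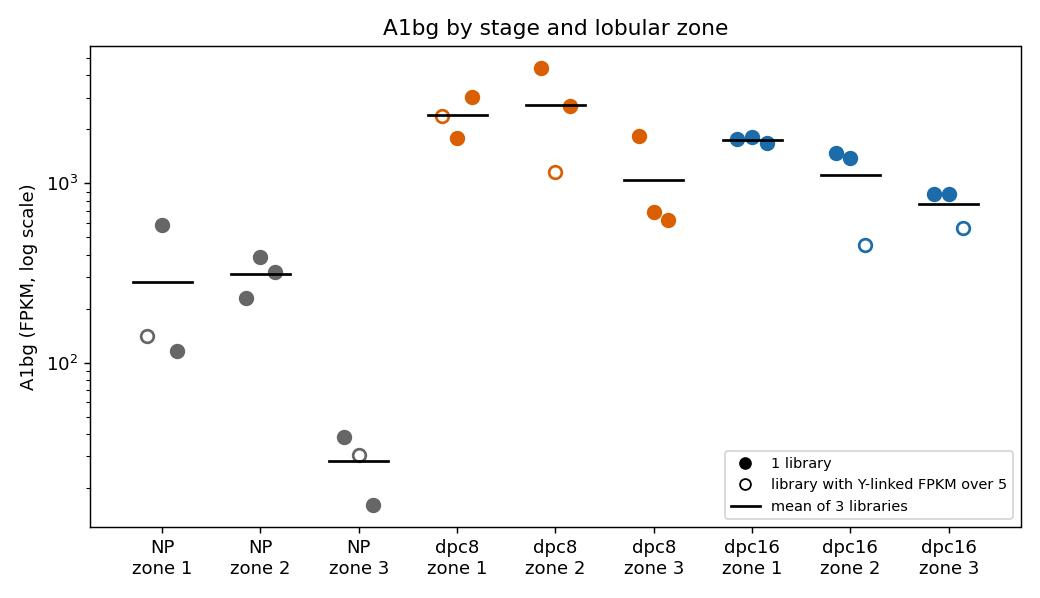
A1bg level (FPKM, log axis) in each of the 27 libraries by stage and zone, with a line at the mean of the 3 libraries of a group. The dpc8 and dpc16 libraries of each zone lie above the NP libraries of that zone, and NP zone 3 lies lowest, between 16.1 and 38.7 FPKM. Open circles are the 6 libraries with Y-linked FPKM over 5.

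Within each zone, the 3 libraries of each pregnant stage lay above all 3 NP libraries, so that 6 of the 9 pairs of stages did not overlap. The remaining pairs, dpc16 against dpc8, overlapped in each zone. The ratio of group means, dpc8 over NP, was 8.53 in zone 1, 8.82 in zone 2 and 36.9 in zone 3. For dpc16 over NP it was 6.22, 3.55 and 27.05. Single libraries moved these ratios. Without NP zone 1 replicate 2 the zone 1 ratios were 18.7 at dpc8 and 13.7 at dpc16, and without dpc8 zone 3 replicate 1 the zone 3 ratio at dpc8 was 23.2. The ratio was highest in zone 3, where the NP level was lowest and not where the pregnant level was highest. In bulk samples such as these, fewer cells of a type and less RNA per cell cannot be told apart.

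On the log2(FPKM + 1) scale, the dpc8 minus NP difference was 3.46 ± 0.77 (SE) in zone 1, 2.97 ± 0.61 in zone 2 and 5.06 ± 0.61 in zone 3. The dpc16 minus NP difference was 3.04 ± 0.74, 1.67 ± 0.60 and 4.76 ± 0.42. Both sets use the same NP libraries. From dpc8 to dpc16 the difference was -0.42 ± 0.22 in zone 1, -1.29 ± 0.79 in zone 2 and -0.30 ± 0.54 in zone 3, none of which separated the libraries.

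The zonal gradient was steeper in NP than in pregnant livers, a description of the means that was not tested. Zone 1 exceeded zone 3 by 2.95 ± 0.82 (SE) on the log2 scale in NP, by 1.34 ± 0.54 at dpc8 and by 1.22 ± 0.22 at dpc16. The zone 1 and zone 3 libraries did not overlap in NP and dpc16, and they did at dpc8, where replicate 1 of zone 3 reached the lowest zone 1 library. Zone 2 exceeded zone 3 by 3.46 ± 0.42 in NP, 1.37 ± 0.75 at dpc8 and 0.37 ± 0.60 at dpc16. Zone 1 minus zone 2 was -0.52 ± 0.77 in NP, -0.02 ± 0.61 at dpc8 and 0.84 ± 0.56 at dpc16, the last without overlap. In all, 4 of the 9 pairs of zones within a stage did not overlap.

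Ordered by mean log2 level, the groups ran dpc8 zone 2, dpc8 zone 1, dpc16 zone 1, dpc16 zone 2, dpc8 zone 3, dpc16 zone 3, NP zone 2, NP zone 1 and NP zone 3. The large steps were between dpc16 zone 3 and NP zone 2, at 1.30, and between NP zone 1 and NP zone 3, at 2.95. Each is more than the pooled SD of its pair. The steps from dpc8 zone 1 to dpc16 zone 1 (0.42) and from dpc16 zone 1 to dpc16 zone 2 (0.84) also passed that SD, although the libraries of the first pair overlapped. The other neighbours did not differ beyond their spread.

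Zone markers checked the labels. Of 13 periportal markers such as Cyp2f2 and Hal, 9 were higher in zone 1 than in zone 3 in NP by limma at an adjusted p under 0.05, against 1.34% of all genes called in either direction. The same count was 9 at dpc8 (background 1.61%) and 12 at dpc16 (1.55%). Of 13 pericentral markers such as Glul and Cyp2e1, 12, 13 and 12 were lower. Over the 27 libraries all 13 periportal markers correlated positively with A1bg (median r 0.38) and none of the 13 pericentral markers did (median r -0.38). At dpc8 against NP the periportal median log2 difference was -0.46, -0.45 and 0.50 in zones 1 to 3 (0, 0 and 4 at an unadjusted p under 0.05). It was -0.15, -0.36 and 0.03 for the pericentral markers (0, 2 and 1) and -0.17, -0.45 and 0.66 for 9 Kupffer cell markers (0, 0 and 1). Over all genes 3.13%, 5.06% and 2.74% passed that threshold. After adjustment limma called none of these markers (0.00772% to 0.0309% of all genes). Their part in the A1bg change was not tested.

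Some facts about the libraries touch these values. The FPKM sum ran from 499866 to 988500 over all libraries. It was 519848 to 614272 in dpc8 zone 1 and 876877 to 988500 in dpc16 zone 1, and its part in the stage differences was not tested. Estimated depth, read from steps in low FPKM values, was 7.35 to 32.5 M reads (M for the prefix mega, median 16.05), and A1bg corresponds to about 514 to 110573 reads per library. All mice are labelled female, yet 4 Y-linked genes summed to 7.92 to 23.2 FPKM in 6 libraries and to at most 2.97 in the other 21. In those 6 libraries the 15 connective tissue and smooth muscle genes, none of them at 0 in all libraries, had a mean log2 level of 5.46 to 6.86, against 2.12 to 4.74 in the rest. They include the library with least A1bg in dpc8 zone 2 (replicate 2) and in each of zones 2 and 3 at dpc16 (replicate 3), and the part of this tissue in those values was not tested. Without these libraries the mean was 3553 FPKM in dpc8 zone 2 (n = 2), 1436 in dpc16 zone 2 (n = 2) and 873 in dpc16 zone 3 (n = 2), while dpc8 zone 1 (2422, n = 2), NP zone 1 (353, n = 2) and NP zone 3 (27.4, n = 2) stayed on their side of the stage difference.

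Albumin, the most abundant plasma protein, served as a hepatocyte yardstick measured in the same libraries. Alb was 26477 to 59222 FPKM as a group mean in NP, 26651 to 48274 at dpc8, and 106476 to 172927 at dpc16. Per 100 FPKM of Alb, A1bg averaged 0.513, 0.607 and 0.112 FPKM in NP zones 1, 2 and 3, then 5.35, 6.48 and 3.89 at dpc8, then 1.03, 0.902 and 0.781 at dpc16. Relative to Alb, all dpc8 libraries thus lay above all others, with a lowest value of 2.39, and the dpc16 libraries, at 0.635 to 1.11, overlapped those of NP zones 1 and 2, which reached 0.942.

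The replicates with low A1bg at dpc16 were also low in Alb. Replicate 3 of dpc16 zone 2 had 41785 FPKM of Alb and replicate 3 of dpc16 zone 3 had 54993, each the lowest of its group, and their A1bg per 100 Alb (1.08 and 1.02) was the highest of its group. Measured against the sum of 38 plasma protein genes, A1bg was 0.218%, 0.243% and 0.0322% in NP zones 1 to 3, 2.37%, 2.62% and 1.12% at dpc8, and 0.500%, 0.435% and 0.353% at dpc16.

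**Figure D2:**
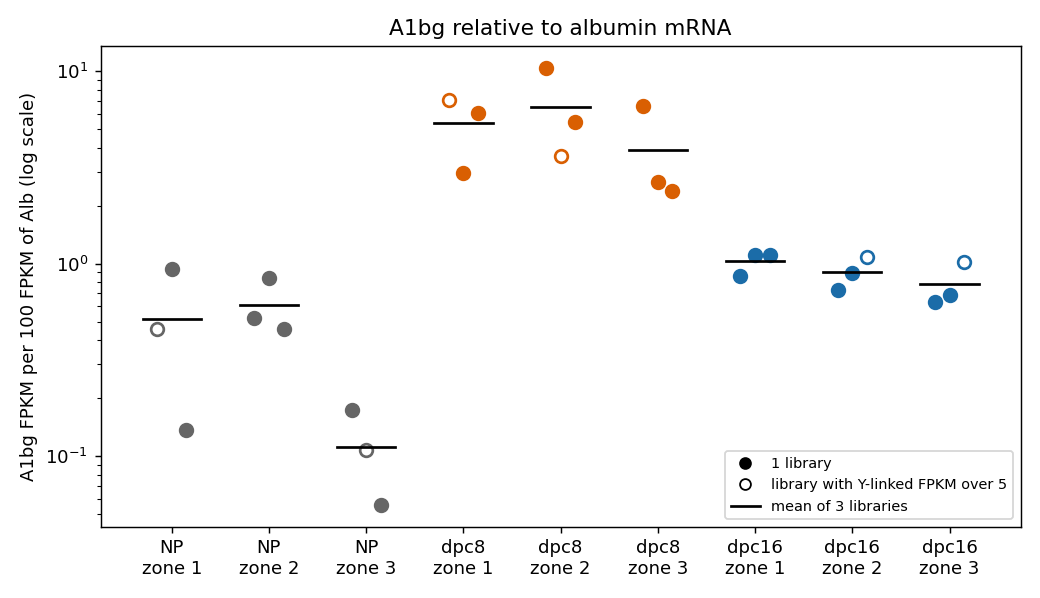
A1bg FPKM per 100 FPKM of Alb (log axis) in each of the 27 libraries, with a line at the group mean. The 9 dpc8 libraries lie between 2.39 and 10.4, the 9 dpc16 libraries between 0.635 and 1.11, and the 9 NP libraries between 0.0560 and 0.942, so dpc16 and NP overlap on this scale. Open circles are the libraries with Y-linked FPKM over 5.

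Few of the other plasma protein genes were called at either stage. None of the 38 was called by limma in any zone at dpc8, where 0.0309%, 0.00772% and 0.0154% of all genes were called in zones 1, 2 and 3 (either direction) and 3, 3 and 0 of the 38 had an unadjusted p under 0.05 (3.13%, 5.06% and 2.74% of all genes). At dpc16, 3 rose in each zone, against 0.996%, 1.02% and 0.749% of all genes called higher and 1.37%, 2.66% and 1.32% called in either direction. At an unadjusted p under 0.05 the counts were 24, 5 and 10 of 38, against 11%, 16.6% and 11.5% of all genes. The 3 that rose were Serpina6 (corticosteroid-binding globulin), Itih4 (an inter-alpha-trypsin inhibitor chain) and Cp (ceruloplasmin), named after their values were seen. Serpina6 went from 220 to 18773 FPKM in zone 1, a log2 difference of 6.54 ± 0.49 (SE, limma adjusted p = 2.44e-08). Ttr (transthyretin) fell in zones 2 and 3, with log2 differences of -1.94 and -1.53, and the zone 3 call was lost without any 1 of its 6 libraries (-1.63 to -1.36). The median log2 difference of the list at dpc16 was 1.10, 0.28 and 0.55 in zones 1 to 3, against -0.05, 0.04 and 0.01 over all genes.

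Of 17 immunoglobulin-superfamily relatives and CRISP genes, 7 passed the filter on low values. None of the 7 was called by limma at either stage against NP, where 0.00772% to 0.0309% of all genes were called at dpc8 and 1.32% to 2.66% at dpc16. At an unadjusted p under 0.05 the count was 0 in all zones at dpc8 (2.74% to 5.06% of all genes) and 0, 2 and 1 at dpc16 (11%, 16.6% and 11.5%). Pigr, the polymeric immunoglobulin receptor, was higher in zone 1 than in zone 3 at dpc16, at 478 against 86.5 FPKM (log2 difference 2.61 ± 0.43, limma adjusted p = 0.000684), in a comparison where 0.780% of all genes were called higher. It too was named after its value was seen.

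The growth hormone and prolactin receptors were called higher at dpc16 and were not called at dpc8. Ghr, the growth hormone receptor, averaged 171, 213 and 280 FPKM in NP zones 1 to 3, 115, 164 and 241 at dpc8, and 2077, 1602 and 1533 at dpc16. In dpc16 zone 1 its libraries had 1590 to 2391 FPKM, and the highest NP zone 1 library had 218. The dpc16 minus NP log2 difference was 3.62 ± 0.33, 2.75 ± 0.33 and 2.42 ± 0.33 (SE, limma adjusted p = 5.57e-07, 3.26e-05 and 0.000148). At dpc8 it was -0.53, -0.41 and -0.22, and no zone passed the test.

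Prlr, the prolactin receptor, averaged 211, 317 and 349 FPKM in NP, 332, 447 and 525 at dpc8, and 2147, 1740 and 1749 at dpc16. Its dpc16 minus NP difference was 3.42 ± 0.38, 2.27 ± 0.38 and 2.28 ± 0.38 (SE, limma adjusted p = 6.97e-06, 0.00117 and 0.00127). Both receptors were thus called higher in all zones at dpc16. In dpc16 zone 2 the lowest library was again replicate 3 for both, with 730 FPKM of Ghr and 697 of Prlr. Over the 27 libraries the correlation with A1bg was 0.17 for Ghr and 0.43 for Prlr.

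Of the 23 genes of growth hormone and prolactin signalling, 22 passed the filter. In either direction 0 were called at dpc8 by limma, where 0.0309%, 0.00772% and 0.0154% of all genes were called in zones 1, 2 and 3. At an unadjusted p under 0.05 the count was 0 in each zone (3.13%, 5.06% and 2.74% of all genes). The unadjusted counts at dpc16 were 3, 9 and 6 of 22, against 11%, 16.6% and 11.5% of all genes. At dpc16, Ghr and Prlr were the 2 called higher in each zone, and Stat5a, a transducer of both hormones, was the 1 called lower, in zone 2 (3.03 against 7.47 FPKM, log2 difference -1.05 ± 0.28, limma adjusted p = 0.0464). The Stat5a call was lost without any 1 library but NP zone 2 replicate 1 (-1.14 to -0.84), while those of Ghr and Prlr held without each library in turn. Against these counts stand 0.996%, 1.02% and 0.749% of all genes called higher and 1.64% called lower in zone 2. Feedback and target genes were not called: Socs2, a feedback inhibitor, had dpc16 minus NP differences of 1.49, 0.92 and 0.30, and Igf1, the liver-made growth factor, of 0.20, -0.83 and -0.79.

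Female-biased liver genes did not move as 1 group. All 27 on the list passed the filter. At dpc8 limma called 0 of them higher in any zone, against 0.0154%, 0.00772% and 0.0154% of all genes in zones 1, 2 and 3. At an unadjusted p under 0.05, 4, 7 and 7 passed in zones 1, 2 and 3, against 3.13%, 5.06% and 2.74% of all genes (either direction). In zone 1 limma called 1 lower, Cyp2b13, a steroid- and drug-metabolizing cytochrome P450. Lower calls were 0.0154% of all genes there. The list's median log2 difference at dpc8 was 0.33, 0.39 and 0.54 in zones 1 to 3, against 0.01, 0.00 and -0.03 over all genes.

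At dpc16 in zone 1, 4 of the 27 rose and 1 fell, against 0.996% and 0.371% of all genes called higher and lower. At an unadjusted p under 0.05, 14, 12 and 9 of the 27 differed in zones 1, 2 and 3, against 11%, 16.6% and 11.5% of all genes. Those that rose were Cyp3a44, Cyp3a16 and Cyp3a41a, cytochromes P450 of the Cyp3a cluster, and Nipal1, a magnesium transporter-like gene. Cyp3a44 libraries had 16.6 to 39.2 FPKM in NP zone 1 and 333 to 578 at dpc16, without overlap, a log2 difference of 3.96 ± 0.51 (limma adjusted p = 6.58e-05). Cyp3a16 rose from 3.14 to 55.5 FPKM (3.80 ± 0.66, adjusted p = 0.00226 by limma), and Cyp3a41a from 2.00 to 18.8 (2.76 ± 0.42, limma adjusted p = 0.000492). Nipal1 rose from 11.9 to 37.0 FPKM (1.58 ± 0.39, limma adjusted p = 0.0441), a call lost when any 1 of 5 of the 6 libraries was left out (all but NP zone 1 replicate 3), with differences of 1.37 to 1.79. The Cyp3a calls held with any 1 library left out. Cyp3a genes are close copies, and how uniquely mapped reads split between them is uncertain.

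Cyp2b13 went the opposite way. Its zone 1 mean was 62.3 FPKM in NP, 10.2 at dpc8 and 2.99 at dpc16, and the log2 difference from NP was -2.54 ± 0.45 at dpc8 (limma adjusted p = 0.0417) and -3.99 ± 0.45 at dpc16 (limma adjusted p = 1.11e-05). The dpc8 call was lost, at adjusted p of 0.0758 to 0.352 by limma, without any 1 of the 6 libraries other than NP zone 1 replicate 1, and the dpc16 call was kept without each library in turn. Cyp2b13 also fell at dpc16 in zone 2, from 104 to 3.83 FPKM, and in zone 3, from 118 to 14.2 FPKM. Slc22a26, an organic anion transporter family gene, fell in zones 2 and 3, with differences of -1.92 ± 0.32 and -1.33 ± 0.32 (SE). In zone 2, 0 female-biased genes rose by limma and 2 fell (backgrounds 1.02% and 1.64%), and in zone 3, 1 rose and 2 fell (0.749% and 0.571%), the riser being Cyp3a44 at 2.41 ± 0.51. The zone 3 call of Cyp3a44 was lost without NP replicate 1 or dpc16 replicate 1 or 2 (2.09 to 2.18), and that of Slc22a26 without any 1 library but NP replicate 2 (-1.44 to -1.15). Without replicate 3 of dpc16 zone 2, 5 of the 27 were called in zone 2 in place of 2, with 2.22% of all genes called in place of 2.66%. In zone 3 the count of 3 went to 1 without replicate 1 and to 1 without replicate 2 of dpc16, with 0.687% and 0.703% of all genes called in place of 1.32%.

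Zonal placement of the female-biased genes differed from gene to gene. In NP, 2 were higher in zone 1 and 4 lower (backgrounds 0.525% and 0.811%), at dpc8 1 and 6 (0.679% and 0.926%), and at dpc16 4 and 4 (0.780% and 0.772%). With the replicate number added to the fit, 11 in place of 8 were called at dpc16 (2.65% of all genes in place of 1.55%). At an unadjusted p under 0.05, 13, 12 and 13 differed between the zones in NP, dpc8 and dpc16, against 8.02%, 12.2% and 7.86% of all genes. Cyp17a1, a steroid hydroxylase, was higher in zone 1 at each stage, at 187 against 5.48 FPKM in NP. Sult3a1, a sulfotransferase, was higher in zone 3 at each stage, at 311 against 2.32 FPKM in NP. The change from NP to pregnancy did not differ by the test between zones 1 and 3 for any of the 27 (limma, 0 called at either stage, with 1 at dpc8 and 5 at dpc16 at an unadjusted p under 0.05). Over all genes that contrast called 0% at dpc8 and 0.054% at dpc16, 0.0154% higher and 0.0386% lower, and 2.36% and 3.16% had an unadjusted p under 0.05.

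Male-biased genes were followed as a counterpart, with 22 of 26 past the filter. None was called at dpc8 by limma, where 0.0309%, 0.00772% and 0.0154% of all genes were called in zones 1, 2 and 3. At an unadjusted p under 0.05 the counts were 2, 1 and 2, against 3.13%, 5.06% and 2.74% of all genes. At dpc16, 0 rose, and 2, 2 and 1 fell in zones 1, 2 and 3, against 0.371%, 1.64% and 0.571% of all genes called lower. At an unadjusted p under 0.05, 7, 9 and 10 of the 22 differed, against 11%, 16.6% and 11.5% of all genes. Other markers were followed in the same libraries at dpc16. The 9 Kupffer cell markers, none of them at 0 in all libraries, summed to 322 to 531 FPKM in NP zone 2 and 72.4 to 275 at dpc16, and to 137 to 165 and 44.0 to 103 in zone 3. Their median log2 difference was -0.30, -1.16 and -0.91 in zones 1 to 3, with 0, 1 and 0 called lower by limma and 0, 7 and 5 at an unadjusted p under 0.05. The medians of the 13 periportal markers were -0.15, -1.36 and -1.09. Of these markers, 0, 1 and 2 were called lower and 1 higher in zone 3, where 0.749% of all genes were called higher. At an unadjusted p under 0.05 the periportal counts were 4, 8 and 8. The medians of the 13 pericentral markers were -0.19, -1.01 and -0.56, with 1, 3 and 0 called lower and 8, 6 and 2 at an unadjusted p under 0.05. The shares of all genes given above for the male-biased list hold here too. The 15 connective tissue and smooth muscle genes had medians of -1.83, 0.64 and -0.22 (1, 1 and 0 at an unadjusted p under 0.05). For 6 biliary markers they were -0.80, -0.21 and -0.27 (1, 0 and 0). For 8 blood and lymphoid markers they were -0.31, -0.91 and -0.39 (0, 1 and 0), and for 9 sinusoidal endothelial markers 0.08, -0.56 and -0.35 (0, 0 and 1). Limma called no gene of these last lists. The part of all these markers in the results for the sex-biased and hormone lists was not tested. Nudt7, a peroxisomal coenzyme A hydrolase, fell in each zone, with log2 differences of -2.17, -2.65 and -2.53. Mup20, a major urinary protein with many close copies, fell in zone 1, and Car3, carbonic anhydrase III, in zone 2. Several of these calls depended on single libraries. Nudt7 lost its zone 1 call without NP replicate 2 or 3 or dpc16 replicate 1 or 2 (-2.08 to -1.66) and its zone 3 call without NP replicate 3 or dpc16 replicate 1 (-2.44 to -2.10). Mup20 lost its call without NP replicate 2 or 3 or dpc16 replicate 1 or 3 (-2.59 to -2.30), and Car3 without any 1 library but dpc16 replicate 1 (-2.30 to -1.63). In zone 1 against zone 3, 4, 8 and 3 male-biased genes were lower in NP, dpc8 and dpc16 and 0 higher, against 0.811%, 0.926% and 0.772% of all genes called lower. At an unadjusted p under 0.05, 9, 11 and 7 of the 22 differed, against 8.02%, 12.2% and 7.86% of all genes. The genes called lower included Slco1a1, an organic anion transporter, and Susd4, a complement regulator, at each stage. In NP the Slco1a1 call was lost without zone 1 replicate 1 or zone 3 replicate 3 (-3.49 to -3.38) and that of Susd4 without zone 1 replicate 1 or zone 3 replicate 2 or 3 (-2.80 to -2.64). The Susd4 call at dpc8 was lost without zone 1 replicate 2 or zone 3 replicate 1 (-2.67 to -2.56).

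**Figure D3:**
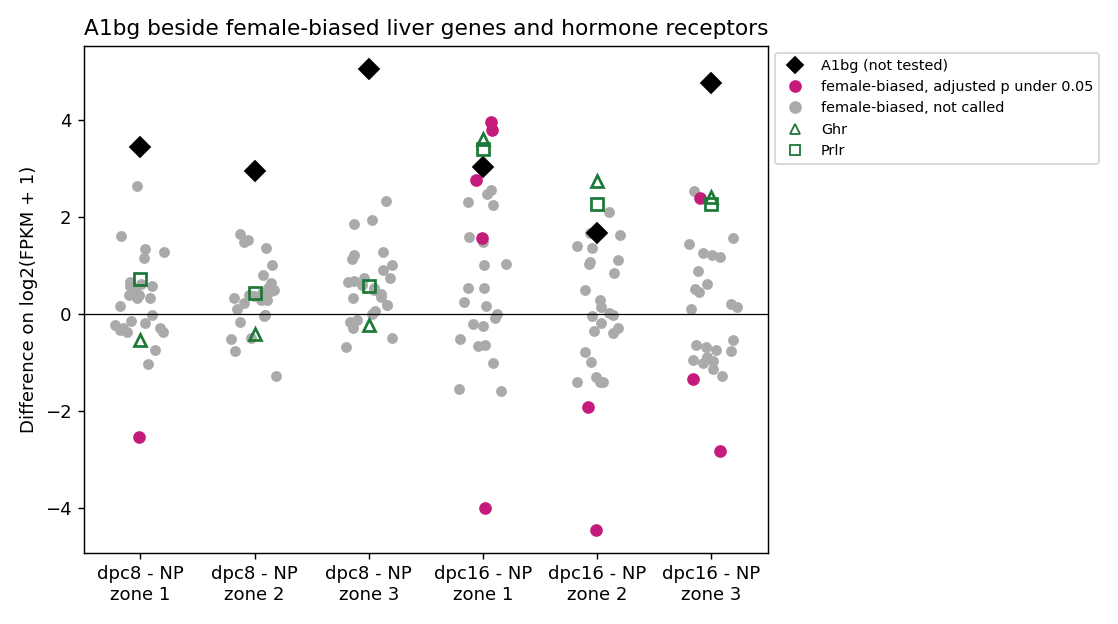
Differences on log2(FPKM + 1) between each pregnant stage and NP in each zone, for A1bg (black diamonds), the 27 female-biased liver genes (circles, filled pink where limma's adjusted p was under 0.05), Ghr (triangles) and Prlr (squares). A1bg lies between 2.97 and 5.06 at dpc8, above all female-biased genes shown. At dpc16 it lies at 3.04 in zone 1, under Cyp3a44 and Cyp3a16, at 1.67 in zone 2, under Cyp3a41b and Cyp17a1, and at 4.76 in zone 3, above all of them, while Ghr and Prlr lie between -0.53 and 0.72 at dpc8 and between 2.27 and 3.62 at dpc16.

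The genes whose values were most like those of A1bg were found by Pearson's r of log2(FPKM + 1) over the 27 libraries. Across 12951 genes the median r was -0.01, with 24 genes over 0.6 and 24 under -0.6. The points share their libraries, and zones may share mice, so r is a description only. The 10 genes with the highest r were Nipal1 (0.73), Qsox1 (0.73), Ly6d (0.72), Ugt1a8 (0.70), Cyp3a44 (0.69), Dct (0.68), Cables1 (0.67), Grn (0.65), Mppe1 (0.65) and Mt2 (0.65). Just outside stood Ccl9, at 0.64. Of these, Nipal1 and Cyp3a44 are on the female-biased list, whose 27 genes had a median r of 0.08 and ranged from -0.57 to 0.73. The male-biased list had a median of -0.20 with 5 of 22 positive.

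Qsox1, a secreted enzyme that forms disulfide bonds, followed A1bg within groups as well as between them. Its r with the 9 group means taken out was 0.69, and it was 0.90 within NP, 0.74 within dpc8 and 0.87 within dpc16 (9 libraries each). In dpc16 zone 2 its lowest library had 101 FPKM and its highest 336. The lowest was replicate 3, which is 1 of the 6 libraries with Y-linked FPKM and the lowest of its group in Alb. Grn, the gene of the secreted growth factor progranulin, kept 0.63 with the group means out. With the group means out, r was 0.34 for Nipal1, for Ly6d, a surface antigen, 0.24, and for Ugt1a8, a glucuronosyltransferase that shares exons with other Ugt1a genes, 0.20. With A1bg and the other gene each taken relative to Alb, r over the 27 libraries was 0.42 for Qsox1, 0.33 for Grn, 0.61 for Nipal1, 0.72 for Ly6d and 0.66 for Ugt1a8. Dct, dopachrome tautomerase of pigment synthesis, Cables1, a binding partner of cyclin-dependent kinases, and Mppe1, a phosphoesterase that remodels GPI anchors, had a mean of 2.92, 2.27 and 6.68 FPKM over all libraries.

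The mean levels of the tracking genes are given by stage as a description. Nipal1 averaged 11.9, 20.0 and 37.0 FPKM in zone 1 of NP, dpc8 and dpc16, and 5.88, 15.6 and 14.7 in zone 3, so its mean was higher at dpc16 than at dpc8 in zone 1 and lower in zone 3. Qsox1 averaged 183, 233 and 289 FPKM in zone 1 and 108, 184 and 178 in zone 3. Mt2, a metallothionein, averaged 391, 808 and 2052 FPKM in the zone 1 groups. Ly6d was near 0 in NP, with at most 1.45 FPKM in any library, and averaged 17.5 in zone 1 at dpc8 and 18.4 at dpc16. Cyp3a44 had a higher mean in both pregnant stages than in NP in each zone but was not zoned as A1bg was: in NP its zone 3 mean of 69.2 FPKM exceeded its zone 1 mean of 26.9, a log2 difference of -1.34 ± 0.51 that limma did not call (adjusted p = 0.399).

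Among the 5 genes with the lowest r were Dsg1c, a desmosomal cadherin (-0.78), Ackr4, a scavenging chemokine receptor (-0.74), Sort1, sortilin, a sorting receptor (-0.71), and Ihh, a hedgehog ligand (-0.71). Just outside stood Opa3, at -0.69. Dsg1c, Ackr4 and Ihh averaged at most 1.005 FPKM over the libraries and rest on few reads. Sort1 was again alike within groups, with r of -0.74 once group means were out and of -0.84, -0.85 and -0.82 within NP, dpc8 and dpc16. Relative to Alb its r over all libraries was -0.30. It was low throughout, at 0.822 to 7.50 FPKM.

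**Figure D4:**
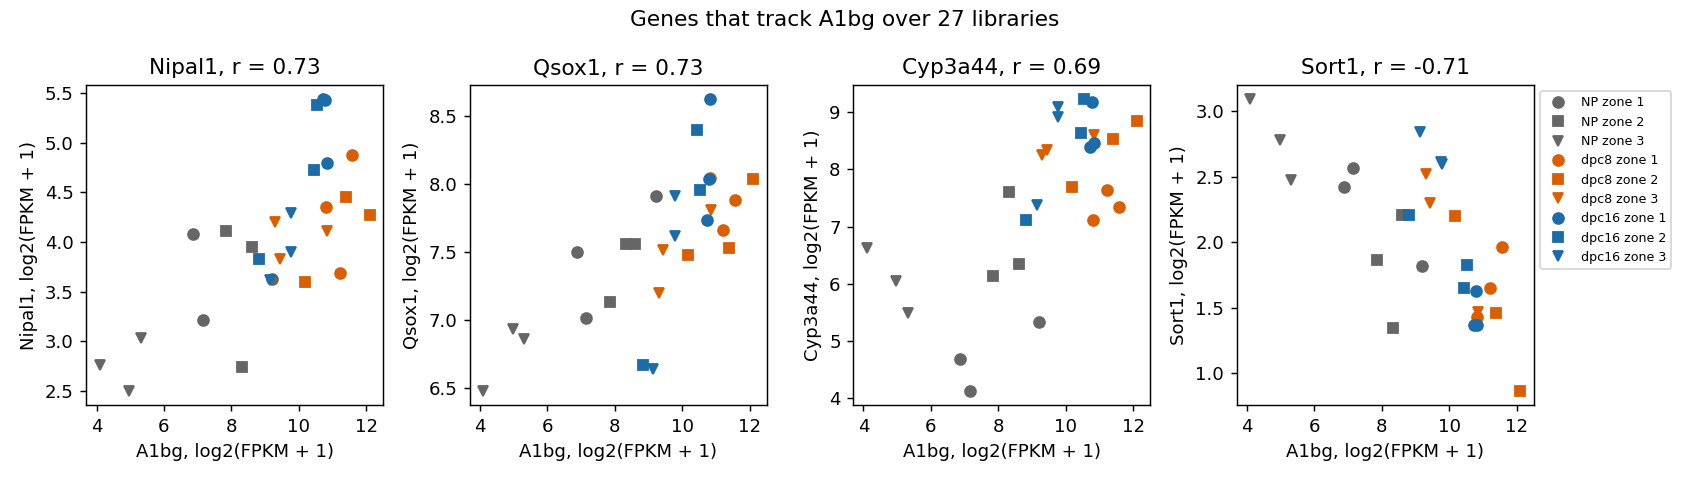
Log2(FPKM + 1) of Nipal1, Qsox1, Cyp3a44 and Sort1 against that of A1bg in the 27 libraries, coloured by stage and shaped by zone, with Pearson's r (0.73, 0.73, 0.69 and -0.71). NP zone 3 libraries sit at the left of each panel, and in the Cyp3a44 panel the NP zone 1 libraries lie under the trend of the others.

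The list of tracking genes depended on the libraries used. Of the 10 genes, 2 remained without the 6 libraries with Y-linked FPKM, where Smoc1 led at 0.84. Leaving out the 2 libraries farthest from the median A1bg level, replicates 3 and 2 of NP zone 3, kept 3 of the 10 and put Cyp3a44 first at 0.74. With the group means taken out, 0 of the 10 were among the leading 10, and Btd, biotinidase, led at 0.88 (named after its value was seen). Of the tracking genes, 7 have a RefSeq promoter in the table used. The STAT5 motif printed above was in 0 of the 7, the ONECUT1 and FOXA motifs were each in 1 (Cyp3a44), and the C/EBP motif in 1 (Mt2).

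The nearest protein-coding genes of the table on each side of A1bg were compared by position. Fam84b lies 43.1 kb away and had the highest r with A1bg of the neighbours, at 0.56. Its group means were 5.79 to 8.44 FPKM in NP, 12.9 to 17.5 at dpc8 and 13.5 to 21.6 at dpc16. It was higher at dpc16 in zone 2 (log2 difference 1.13 ± 0.29, limma adjusted p = 0.0347) and zone 3 (1.48 ± 0.29, limma adjusted p = 0.00705), and not called in zone 1 (0.92 ± 0.29, limma adjusted p = 0.143). The zone 2 call was lost without NP replicate 3 or dpc16 replicate 1 or 2 (0.88 to 1.10), and the zone 3 call without NP replicate 1 or dpc16 replicate 2 (1.30 to 1.35). At dpc8 it was not called in any zone, with differences of 0.62, 1.09 and 1.21 and unadjusted limma p of 0.0418, 0.00103 and 0.000387. Trib1, a pseudokinase gene, and Myc, the transcription factor, lie 1240 and 1062 kb away, with r of 0.11 and 0.13, and were not called in any of these comparisons. The remaining 3, 4933412E24Rik, Gsdmc and Gsdmc2, were listed at 0 in most or all libraries and did not pass the filter.

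The calls on named genes depended in part on which libraries entered the fit. When limma was fitted to only the groups compared, 24 of 64 calls were lost, at adjusted p of 0.0542 to 1. Between dpc16 and NP, 10 of 12 were lost in zone 2, namely Ghr, Prlr, Stat5a, Slc22a26, Nudt7, Car3, Cp, Itih4, Ttr and Fam84b. In zone 3, 7 of 11 were lost, those of Cyp3a44, Cyp2b13, Slc22a26, Nudt7, Itih4, Ttr and Fam84b. In zone 1, 3 of 12 were lost, those of Nipal1, Nudt7 and Mup20, as was the dpc8 call of Cyp2b13. Between zones 1 and 3 in NP, Slco1a1 and 2 cytochromes P450, Cyp2a4 and Cyp7b1, lost theirs. The other settings lost 17 of 448, on Nipal1 and Cyp2b13 (dpc8) in zone 1, on Stat5a, Car3 and Fam84b in zone 2, on Ttr in zone 3, and on Slco1a1 and Cyp7b1 between zones. The 448 include 64 under a replicate block and 64 under array weights, settings that called more genes and lost 0.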

How the data were processed

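Zones were laser-microdissected from frozen liver sections, and ribosome-depleted libraries were made from 50 ng of total RNA (RIN above 7). The authors trimmed reads with cutadapt, aligned them to mm10 with HISAT2 2.1.0, and computed the deposited FPKM values with Cuffdiff of Cufflinks 2.2.1 on GENCODE M22 protein-coding genes. Read counts were not used here, and depth was estimated from steps in low values. Gene positions were taken from GENCODE M21.

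Groups and replicate numbers come from the sample titles. Genes with at least 1 FPKM in at least 3 libraries were kept (12952 of 21823). Values were analysed as log2(FPKM + 1), which understates changes of weakly expressed genes. limma 3.58.1 in R 4.3.3 fitted a mean for each of the 9 groups, with robust variance moderation along an intensity trend. All tests were two-sided, with Benjamini-Hochberg adjustment over all genes kept and a threshold of 0.05. The script was tested on simulated data.

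A1bg, the gene lists and the tests were chosen with earlier results of these data known. The genes named are A1bg, the 10 genes with the highest and 5 with the lowest r, 3 neighbours on each side, Alb, and, per comparison and direction, up to 3 called genes of the sex-biased and hormone lists with the largest change, plus genes said to be named after their values were seen. A gene that meets the rule is not reported here. The alternatives tried were pseudocount, scaling, filter, array weights, a replicate block, the groups fitted, and libraries left out.

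Libraries with the same replicate number deviated together from their group means at dpc16, with 9 correlations between zones of 0.26 to 0.86 (median 0.36). This met the rule for pairing. The reported tests between zones and the SE values of A1bg did not use the pairing, which entered only the alternative setting with a replicate block. NP and dpc8 libraries did not meet the rule of 0.1 for every pair.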

Additional observations from a re-analysis of the deposited data

How the results depend on the processing

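The A1bg differences of dpc8 and dpc16 from NP and those between zones 1 and 3 kept their direction under every alternative tried. Each group holds 3 libraries, and A1bg had an estimated 514 reads or more in each. For A1bg, 98 of 108 differences recomputed under other settings kept their sign and moved by less than the spread between replicates, 9 moved by more and 1 changed sign. With 1 library left out 104 of 108 kept their sign and stayed within that spread, and 4 changed sign. The zone 1 minus zone 3 difference at dpc16 was 0.82 after quantile normalization. Measured as a ratio to the plasma protein list it was 0.51, and the dpc16 minus NP difference was 1.55, 0.87 and 3.55 in zones 1, 2 and 3. Zone 1 minus zone 2 at dpc8, near 0, turned to 0.049 after quantile normalization and ranged from -0.55 to 0.42 with 1 library left out. The dpc16 minus dpc8 difference in zone 3 ranged from -0.58 to 0.19, turning positive without dpc8 zone 3 replicate 1. The cause was not tested.

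Of the 10 tracking genes, 6 remained after quantile normalization, 5 by Spearman's rho, 3 without the 2 farthest libraries, 2 without the Y-linked libraries and 0 with group means out. With 1 library left out 6 to 10 remained, the low end coming without NP zone 1 replicate 3, NP zone 3 replicate 2 or NP zone 3 replicate 3.

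The count of female-biased genes called, either direction, was 1, 0 and 0 of 27 at dpc8 and 5, 2 and 3 at dpc16 in zones 1, 2 and 3. In zone 1 at dpc8 it was 0 with pseudocount 0.1, without the filter and with only the groups compared, and 2 after quantile normalization (0.0154%, 0.00581%, 0% and 0.0309% of all genes called, against 0.0309% as reported). Fitting only the groups compared gave 1 in zone 2 and 0 in zone 3 at dpc16 (0.131% and 0.309% of all genes). Without the Y-linked libraries the count was 1 in zone 3 at dpc8, and 9 and 8 in zones 1 and 2 at dpc16 (0.0695%, 2.92% and 4.45% of all genes). Array weights gave 2, 1 and 1 at dpc8 (0.17%, 0.0463% and 0.0618% of all genes), 12, 11 and 6 at dpc16 (5.15%, 8.5% and 5.99%), and 12 for zone 1 against zone 3 at dpc8 in place of 7 (6.6% in place of 1.61%). Leaving out 1 library gave 0 to 1 in zone 1 at dpc8, 2 to 5 in zone 2 and 1 to 3 in zone 3 at dpc16.

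With a replicate block, the replicate number within each stage as an additive term, the count was 2 and 1 in zones 1 and 3 at dpc8 (0.0772% and 0.0463% of all genes), 11, 9 and 6 at dpc16 (4.24%, 5.95% and 3.47%), and 11 for zone 1 against zone 3 at dpc8 (3.54%). Between stages this fit leaves the spread between replicate numbers out of the error, so its counts there are too high. In the dpc16 comparison of zones 1 and 3, where the pairing rule was met, the count went from 8 to 11 (1.55% to 2.65% of all genes), and no named gene lost its call under the block. Among named genes, fitting only the groups compared lost 24 of 64 calls, the other settings 17 of 448 and leaving out 1 library 70 of 384, and none changed sign. Of the 448, 64 came from the replicate block and 64 from array weights. Both called more genes and lost 0, so they weigh little as a check.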
